A study of Mus musculus with 9 samples.

Results

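The baseline chromatin state of a mouse MLL-ENL leukemia line was described from 2 of the 9 libraries of the series, 1 for H3K27me3 and 1 for H3K4me3. MLL-ENL is a fusion oncogene of the Kmt2a and Mllt1 genes that drives a myeloid leukemia. Both libraries come from the line labelled "fl", a floxed line in which the labels report no deletion; they do not name the floxed gene, an age or a drug. The labels mention no replicate, and they do not say whether the line is a single clone. Chromatin was sonicated and precipitated with a polyclonal antibody against each mark. No genotype was compared, and since each mark has 1 library there is no replicate check and no test. Intervals are exact Poisson intervals for counts and densities and exact Clopper-Pearson intervals for shares of genes, all at 95%. The Poisson intervals cover counting error only. The Clopper-Pearson intervals treat genes as independent draws, which adjacent genes need not be. Neither kind covers variation between libraries.

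Of 27179 rows in each file, 26610 were genes with a symbol and a length, and all were placed in 1 of 4 classes, chosen by the H3K27me3 and H3K4me3 counts themselves. H3K27me3 was counted over each gene's whole span and expressed as a density, as CPM (counts scaled to a library of 1e+06) per kb. A gene was called Polycomb dense at 50 or more H3K27me3 counts and a density of 8 CPM per kb or more. For H3K4me3 the files give counts over 301 bp at each gene, and a gene was called H3K4me3 marked at 20 or more counts. Genes past both rules were called bivalent-like, and genes past neither were called unmarked. The named-gene totals were 2444487 counts for H3K27me3 and 645240 for H3K4me3, so the density minimum equals 19.6 counts per kb and the H3K4me3 minimum equals 31.0 CPM.

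H3K27me3 is placed by Polycomb repressive complex 2 and marks repressed genes, above all developmental regulators that a cell type does not use. H3K4me3 is placed by SET1 and MLL family enzymes and marks the starts of active or poised genes, most often at CpG islands. Promoters that carry both marks are called bivalent and were first described at developmental genes of embryonic stem cells. The counts come from a population of cells, so both marks on the same nucleosomes and each mark in different cells cannot be told apart. For the same reason the name bivalent-like describes counts, not a state of a single promoter.

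The bivalent-like class held 357 genes (1.34% of 26610), Polycomb dense only 797 (3%), H3K4me3 only 6751 (25.4%) and unmarked 18705 (70.3%). Polycomb dense genes with or without H3K4me3 numbered 1154, or 4.34%, and H3K4me3 marked genes 7108, or 26.7%. The dense genes held 16.9% of all H3K27me3 counts in 1.21% of the summed gene span. The marked genes held 94.6% of all H3K4me3 counts. These class sizes follow from the thresholds and are given as a description.

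The median H3K27me3 density was 16.4 CPM per kb in bivalent-like genes, 14.7 in Polycomb dense only genes, 0.119 in H3K4me3 only genes and 0.246 in unmarked genes, against a mean of 0.987 over all spans. The median H3K4me3 count was 59 in bivalent-like genes, 79 in H3K4me3 only genes, 3 in Polycomb dense only genes and 1 in unmarked genes. In 166 of the 797 Polycomb dense only genes the H3K4me3 window held 0 counts, which allows up to 3 counts there, and in 132 it held 10 to 19. Both intervals lay wholly past their minimums in 247 of 357 bivalent-like genes. In 591 of 797 Polycomb dense only genes the H3K27me3 interval lay past its minimums and the H3K4me3 interval below its own.

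Gene starts in DNA are shown for 7 plus-strand genes as examples of the 4 classes, because H3K4me3 is known to lie most often at CG-rich starts. They do not show a difference between classes. Each is the RefSeq window from 250 bases before to 50 bases after the start (build GRCm38.p6, the assembly also called mm10), printed 5′ to 3′ in lower case, with every CG dinucleotide in capitals. Hhex and Foxd1 are bivalent-like, Tal1 and Lrrc26 Polycomb dense only, Rcor1 and Mpo H3K4me3 only, and Olfr1301 unmarked.
Hhex, chr19:37434591-37434890, plus strand: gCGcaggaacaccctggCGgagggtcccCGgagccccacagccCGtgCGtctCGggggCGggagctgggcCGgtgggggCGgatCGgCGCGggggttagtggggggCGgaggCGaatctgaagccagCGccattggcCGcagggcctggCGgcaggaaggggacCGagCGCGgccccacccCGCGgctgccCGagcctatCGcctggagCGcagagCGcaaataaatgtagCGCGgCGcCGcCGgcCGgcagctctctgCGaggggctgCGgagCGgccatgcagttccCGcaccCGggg
Foxd1, chr13:98353995-98354294, plus strand: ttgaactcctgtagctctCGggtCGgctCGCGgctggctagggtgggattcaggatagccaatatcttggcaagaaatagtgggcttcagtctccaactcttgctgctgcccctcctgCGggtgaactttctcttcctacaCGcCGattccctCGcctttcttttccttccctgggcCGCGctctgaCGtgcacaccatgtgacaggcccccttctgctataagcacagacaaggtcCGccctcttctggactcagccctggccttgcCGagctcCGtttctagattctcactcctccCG
Tal1, chr4:115056176-115056475, plus strand: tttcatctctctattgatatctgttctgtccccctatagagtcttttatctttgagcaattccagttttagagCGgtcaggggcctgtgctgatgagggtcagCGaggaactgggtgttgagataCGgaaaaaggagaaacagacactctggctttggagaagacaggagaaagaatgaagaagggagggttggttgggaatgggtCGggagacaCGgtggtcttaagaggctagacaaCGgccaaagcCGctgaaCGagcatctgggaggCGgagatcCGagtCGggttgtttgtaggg
Lrrc26, chr2:25289661-25289960, plus strand: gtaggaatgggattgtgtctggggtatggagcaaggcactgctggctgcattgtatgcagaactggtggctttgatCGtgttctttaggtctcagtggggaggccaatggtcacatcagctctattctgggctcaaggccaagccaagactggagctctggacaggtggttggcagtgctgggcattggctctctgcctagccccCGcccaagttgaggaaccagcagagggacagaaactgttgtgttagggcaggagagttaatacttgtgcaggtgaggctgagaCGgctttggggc
Rcor1, chr12:111039117-111039416, plus strand: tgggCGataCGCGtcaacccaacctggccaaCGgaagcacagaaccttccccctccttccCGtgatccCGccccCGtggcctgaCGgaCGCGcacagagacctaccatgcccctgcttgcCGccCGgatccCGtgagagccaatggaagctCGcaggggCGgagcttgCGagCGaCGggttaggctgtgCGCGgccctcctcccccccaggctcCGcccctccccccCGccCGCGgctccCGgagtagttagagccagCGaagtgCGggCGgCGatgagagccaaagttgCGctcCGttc
Mpo, chr11:87793534-87793833, plus strand: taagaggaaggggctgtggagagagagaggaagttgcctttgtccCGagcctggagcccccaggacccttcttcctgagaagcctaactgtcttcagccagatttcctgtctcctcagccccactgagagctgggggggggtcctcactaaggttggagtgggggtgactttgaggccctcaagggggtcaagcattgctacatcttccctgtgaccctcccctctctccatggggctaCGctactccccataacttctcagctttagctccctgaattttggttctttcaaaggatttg
Olfr1301, chr2:111754001-111754300, plus strand: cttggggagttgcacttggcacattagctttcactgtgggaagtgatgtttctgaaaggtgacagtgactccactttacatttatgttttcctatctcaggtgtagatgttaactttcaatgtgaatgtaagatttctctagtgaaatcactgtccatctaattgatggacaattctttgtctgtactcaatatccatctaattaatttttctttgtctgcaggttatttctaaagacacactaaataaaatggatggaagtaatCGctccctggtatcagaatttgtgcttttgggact
Hhex has 37 CG dinucleotides, Rcor1 31, Foxd1 15 and Tal1 11, against 3 in Lrrc26, 2 in Mpo and 1 in Olfr1301. Rcor1 and Mpo share a class yet lie at opposite ends of this scale. Rcor1 encodes the CoREST corepressor and had 317 H3K4me3 counts (283 to 354), while Mpo, the myeloperoxidase of granulocyte precursors, had 89 (71.5 to 110).

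The H3K4me3 window did not lie at the start of every gene. For 2 genes near the end of a chromosome the window was cut short, which shows its position in them. Rnr1 starts at base 70 of the mitochondrial genome and had a window of 221 bp, and LOC100041504 starts at base 96 of its chromosome and had one of 247 bp. Both windows end 151 bases past the gene's lower coordinate, so in these genes the window is centred on the lower coordinate. That the same position holds on both strands is read from the counts by strand, given next. The lower coordinate is the transcription start of a plus-strand gene and the 3′ end of a minus-strand gene. Strand was known from the RefSeq tables for 18983 of the 26610 genes. For the rest the window may lie at either end of the gene.

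The counts follow this position. Of 9534 plus-strand genes 5035 were H3K4me3 marked (52.8%), and of 9449 minus-strand genes 486 (5.14%). Among protein-coding genes the shares were 56.3% (55.2 to 57.4) of 8376 plus-strand genes and 4.86% (4.41 to 5.35) of 8408 minus-strand genes. The H3K27me3 call, which uses the whole span, showed no such gap, with 4.26% of plus-strand and 4.27% of minus-strand genes dense. Many families showed the same gap. All 24 plus-strand oxidative phosphorylation genes were marked, against 6 of 52 on the minus strand, and the counts were 19 of 20 against 1 of 12 for proteasome genes and 126 of 145 against 5 of 159 for zinc-finger Zfp genes. Others did not: replication-dependent histone genes, which are short, were marked in 18 of 34 plus-strand and 21 of 28 minus-strand cases, microRNA genes in 42 of 302 and 32 of 226, Bmp and Gdf ligand genes in 0 of 7 and 2 of 6, and T-box genes in 1 of 7 and 1 of 5.

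**Figure D1:**
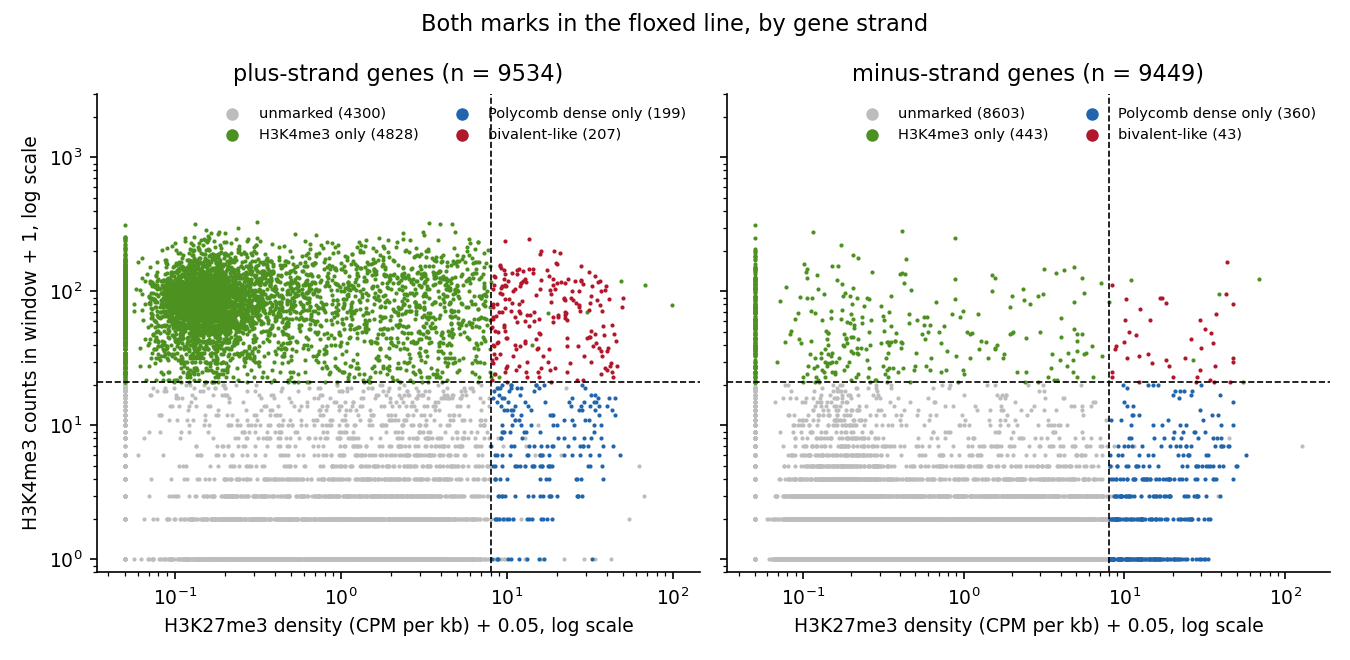
H3K27me3 density (x, CPM per kb plus 0.05, log scale) and H3K4me3 counts in the window (y, plus 1, log scale) of each gene, plus-strand genes left and minus-strand genes right, coloured by class with class sizes in the legend. Dashed lines mark the density minimum of 8 and the H3K4me3 minimum of 20; genes right of the vertical line that are not coloured as dense have fewer than 50 H3K27me3 counts, and the upper cloud of marked genes on the left panel is nearly missing on the right one.

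For minus-strand coding genes gene length is the distance from the window to the gene's own start. The share marked was 4.58% of 655 genes below 1 kb, where it was also low on the plus strand (5.86%). Over the longer bands it fell with length, from 17.1% at 1 to 2 kb to 10.4% at 2 to 5 kb, 5.01% at 5 to 20 kb and 2.01% at 20 kb or more. On the plus strand the share rose over these last 4 bands, from 26.2% to 47.5%, 60.2% and 67.7%. Another gene's start lay within 1000 bp of the window for 107 of the 409 marked minus-strand coding genes (26.2%) and for 2.05% of the 7999 that were not marked. A minus-strand gene of the unmarked or Polycomb dense only class that extends past its window has therefore not been measured for H3K4me3 at its start. Shorter genes, such as many microRNA genes (median length 83 bp over all strands), have their start within the window. The bivalent-like class was 207 genes on the plus strand (2.17% of them), 43 on the minus strand (0.455%) and 107 with no strand in the tables.

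Among plus-strand genes, where the window does cover the start, 406 were Polycomb dense. Of these 207 were bivalent-like, or 51.0% (46.0 to 55.9), and 199 were Polycomb dense only. Plus-strand genes that were not dense were marked at nearly the same rate, 52.9%. The median count of marked genes was 69 in dense and 81 in not dense plus-strand genes. Since these groups are cut on the H3K27me3 counts and not on H3K4me3, the shares describe how often both calls fell on the same gene. H3K27me3 was counted over the whole span, so the marks need not lie at the same place in it.

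The share of marked genes did not run 1 way with H3K27me3 density. In plus-strand coding genes it was 68.8% below 0.5 CPM per kb, 34.5% at 0.5 to 1, 27.5% at 1 to 2, 32.4% at 2 to 4, 42.4% at 4 to 8 and 50.3% at 8 to 12. It was 46.4% at 12 to 20, 48.3% at 20 to 30 and 58.8% (46.2 to 70.6) of 68 genes at 30 or more. The lowest share was thus at 1 to 2 CPM per kb, with an interval of 24.5 to 30.7, below those of the first and the last band. Marked genes in the densest band had a median of 47 counts, lower than the 81 of the lowest band. Density is taken over the whole gene, so a short domain at the start of a long gene falls in a low band.

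Promoter CG content was compared only in genes that are not dense, since promoter windows covered 72.1% of bivalent-like and 73.2% of Polycomb dense only coding genes, too few for that check. Among plus-strand coding genes that were not dense, 8.48% of those with fewer than 5 CG dinucleotides in the window were marked, 33.9% with 5 to 9, 76.4% with 10 to 19, 88.9% with 20 to 29 and 91.4% with 30 or more. The median number of CG dinucleotides was 22 in 4528 H3K4me3 only and 3 in 3485 unmarked genes of this kind. Mpo, with 2, and Elane, with 6, were marked although their windows held few. Of letter motifs searched on both strands, GGGCGG was in 68.4% of these H3K4me3 only and 20.3% of unmarked windows (35.9% of all windows), and CCGGAAG in 19.96% and 3.13% (8.91%). TATAAA was in 6.05% and 21.8% (13.6%), and CCAAT in 38.4% and 40.5% (37.4%). GGGCGG and CCGGAAG each hold a CG dinucleotide, and their shares move with the CG counts. A match is letters in a window, not a bound site.

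**Figure D2:**
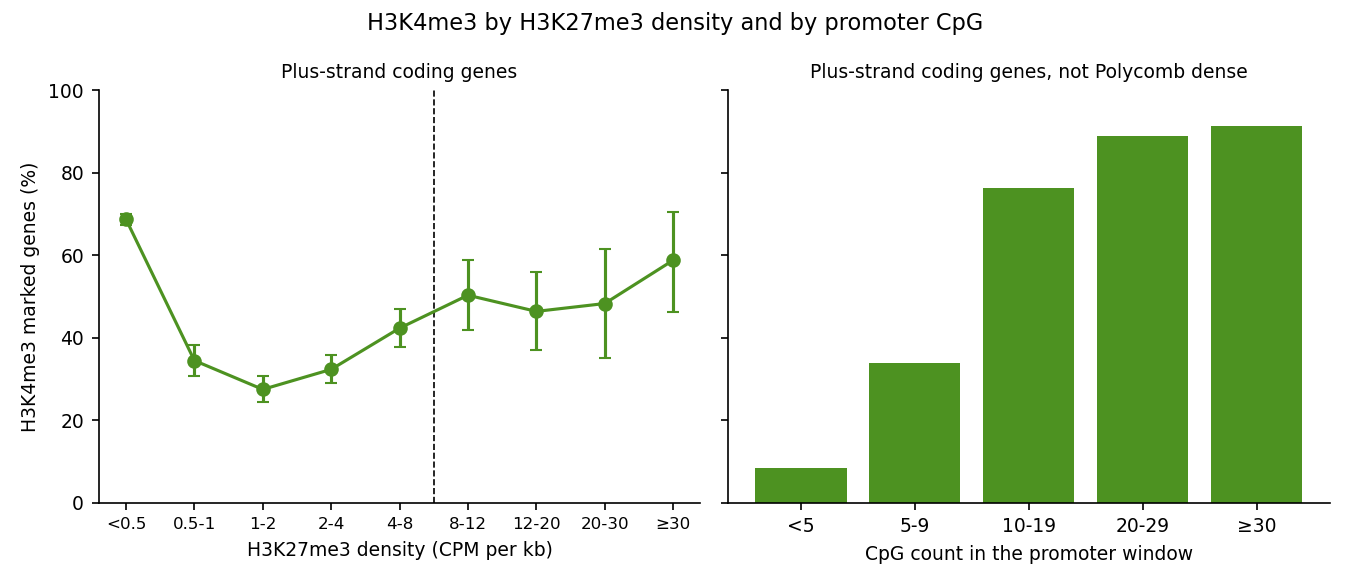
Share of plus-strand coding genes that were H3K4me3 marked (y, percent) by H3K27me3 density band (left, points with 95% Clopper-Pearson intervals, dashed line at the density minimum) and, for genes that were not Polycomb dense, by the number of CG dinucleotides in the promoter window (right, bars). The left curve is lowest at 1 to 2 CPM per kb, and the bars climb from 8.48% to 91.4%.

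Developmental transcription factors filled a large part of both dense classes. Hox, other homeobox and Pax, forkhead, Sox, T-box, GATA and Zic, and tissue basic helix-loop-helix (bHLH) genes together make up 294 genes, or 1.10% of all. They were 62 of 357 bivalent-like genes (17.4%) and 139 of 797 Polycomb dense only genes (17.4%). Dense members were 29 of 39 Hox genes, 96 of 127 other homeobox and Pax genes, 8 of 11 GATA and Zic genes, 26 of 38 bHLH genes, 11 of 19 Sox genes, 23 of 44 forkhead genes and 8 of 16 T-box genes, against 4.34% of all genes.

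The genes with the highest density in the bivalent-like class were Mafa, a transcription factor of pancreatic beta cells, at 62.9 CPM per kb (166 counts) with 48 H3K4me3 counts, and Foxe1, a thyroid factor, at 59.7 (163 counts) with 57. Gpr27, an orphan receptor, followed at 54.9 with 186 H3K4me3 counts, Lbx1, a muscle and spinal cord homeobox factor, at 51.8 with 51, and Foxd1, a kidney stroma factor, at 50.2 with 89. Olig2, which drives oligodendrocyte fate, stood at 46.0 with 27 counts, an interval of 17.8 to 39.3 that reaches below the minimum. The windows of Mafa, Foxe1, Gpr27 and Lbx1 lie at their lower coordinate, and the strand of these 4 genes was not in the tables. The class also held Nkx1-1 (47.4 CPM per kb), the linker histone gene H1fx (47.4) and Foxe3 (47.2), all on the minus strand. H2-Q6, an MHC class I gene at 49.3 CPM per kb with 75 counts, has near-identical copies, so its counts are uncertain.

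Ordered by H3K4me3, the class was led by Lrrc73 with 245 counts (215 to 278), Otud1, a deubiquitinase, with 238, and Foxq1, a forkhead factor, with 228. Itpka, an inositol trisphosphate kinase, had 200, Insm1, a neuroendocrine zinc-finger factor, 199, and Ascl4 and Them6 198 each. Mycl, the third MYC family member, had 194, and Mcidas, a regulator of multiciliated cells, 190. Their densities ran from 9.70 CPM per kb (7.41 to 12.5) in Otud1, on 60 counts, to 54.9 in Gpr27. The interval of Otud1 reaches below the density minimum. Foxq1, Insm1, Them6 and Gpr27 had no known strand, so their windows may not lie at the start.

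The densest genes under the H3K4me3 minimum were Ucn, the neuropeptide urocortin, at 57.3 CPM per kb with 5 H3K4me3 counts, Fam43b at 50.1 with 4, and Neurog1, a neurogenic bHLH factor, at 49.7 with 4. These 3 lie on the minus strand. So do Phlda2 (47.3), Egr4 (47.3), Nkx2-5, the heart homeobox factor (44.4), and Vax1, an eye and forebrain homeobox factor (44.2). The plus-strand genes of this rank were Lrrc26 at 47.8 with 5 H3K4me3 counts, Cldn3, a tight junction claudin, at 45.0 with 15, and Pth2 at 43.6 with 6. For these 3 the window lay at the start and stayed under 20 counts, although the interval of Cldn3, 8.40 to 24.7, crosses the minimum.

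On the plus strand, 24 of 66 dense developmental transcription factors were bivalent-like, or 36.4% (24.9 to 49.1). Among the other 340 dense plus-strand genes the share was 53.8% (48.4 to 59.2), and the intervals overlap only between 48.4 and 49.1. The dense developmental factors had a median of 14 H3K4me3 counts and the other dense genes 24. The strand difference was present here too, with 12 of 67 minus-strand dense factors marked.

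By family the numbers are small and differences between families were not tested. Of 11 dense plus-strand Hox genes 5 were marked, of 30 other homeobox and Pax genes 9, of 12 bHLH genes 4, of 7 forkhead genes 4 and of 4 T-box genes 1. Neurog2, a neurogenic bHLH factor, was at 27.8 CPM per kb with 121 H3K4me3 counts, while Nkx2-3, a gut and spleen homeobox factor, was at 41.2 with 15. The Wnt ligands, secreted growth factors, had 10 of 19 members dense. On the plus strand 5 of 7 dense Wnt genes were marked, among them Wnt1 at 40.8 CPM per kb with 37 counts and Wnt9a at 8.50 with 128, while Wnt8b was at 13.2 with 0. Of 22 Fgf ligands 7 were dense, with Fgf8 at 35.8, Fgf4 at 33.6 and Fgf3 at 20.4 all in the Polycomb dense only class. Only 2 of 20 Bmp and Gdf ligands were dense, Gdf7 at 34.4 and Gdf6 at 19.095.

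Neuronal and tissue gene lists held smaller shares of dense genes than the transcription factor families, and are read here against the 4.34% of all genes. The lists also differ in gene length, the divisor of the density. Median lengths ran from 2620.5 bp in bHLH to 15629 bp in T-box genes. They were 26321 bp in potassium channel, 31033 bp in neurotransmitter receptor and 46301 bp in axon guidance genes. Of all genes 11.7% were dense at 2 to 5 kb, 4.35% at 10 to 20 kb and 2.20% at 20 to 50 kb. The part of length in the difference between lists was not tested. Potassium channel genes had 16 of 98 dense (16.3%), led by Kcna3 at 32.6 CPM per kb with 108 H3K4me3 counts, and neurotransmitter receptor genes 12 of 101 (11.9%), led by the adrenergic receptor gene Adrb1 at 37.4 with 32. Axon guidance genes had 7 of 69 dense (10.1%), among them the ephrin gene Efna2 at 16.1 with 121. Collagen genes had 2 of 44 dense (4.55%), near the share of all genes. Their median length was 114378 bp, and of all genes of 100 kb or more 0.347% were dense. Keratin genes had 2 of 106 dense, olfactory receptor genes 1 of 1123 and vomeronasal and taste receptor genes 0 of 367. The median length was 945 bp in olfactory and 951 bp in vomeronasal and taste receptor genes. Of all genes below 1 kb 0.400% were dense, so these low shares are near those of genes of their length. The sensory receptor families were thus in the unmarked class almost entirely, with 1120 of 1123 olfactory receptor genes there.

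**Figure D3:**
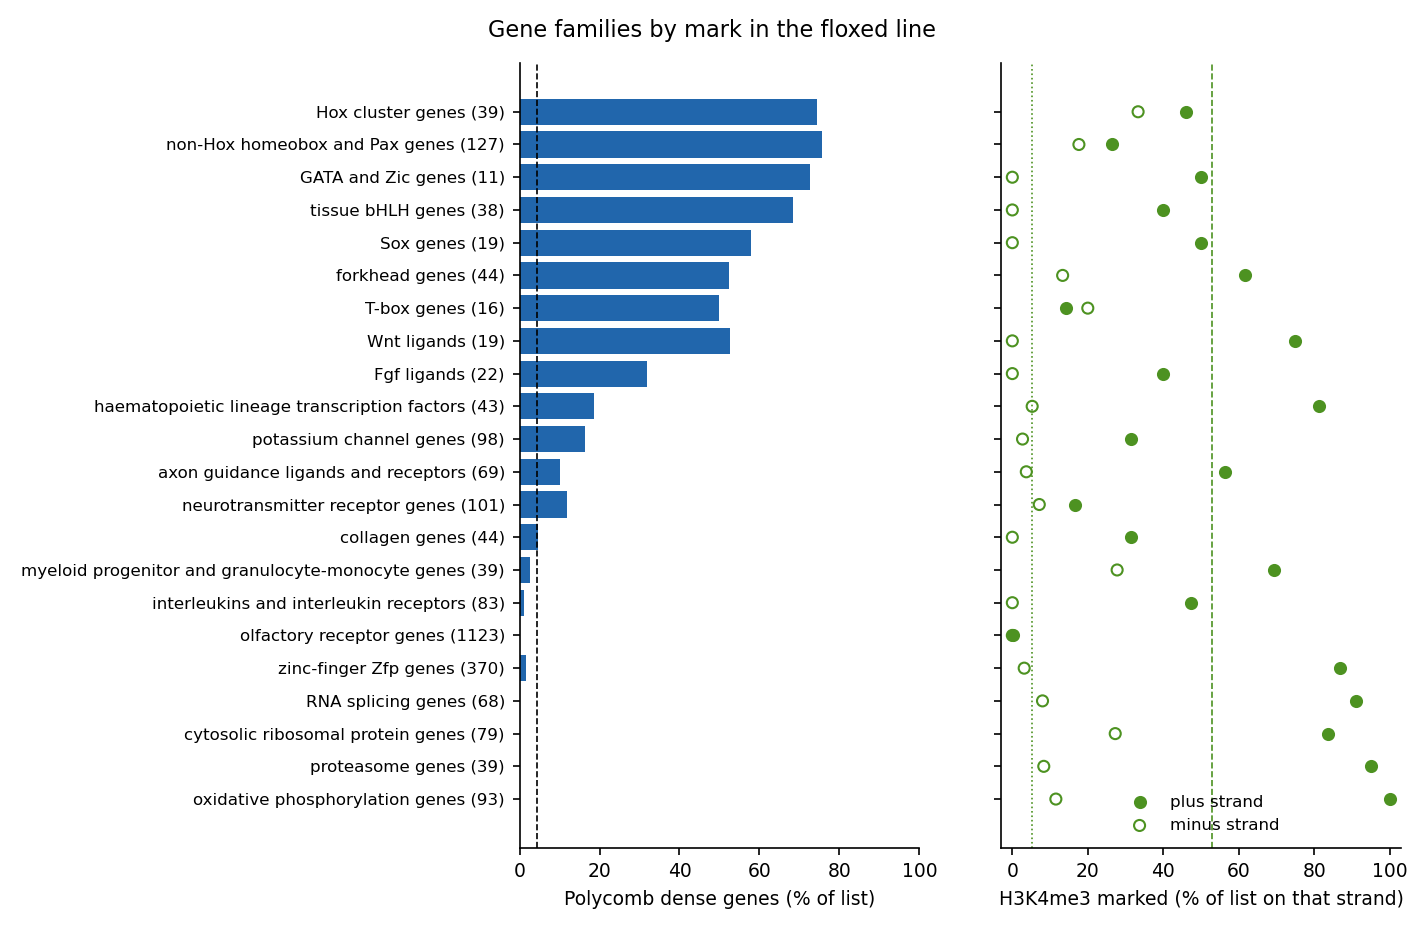
Share of each gene family that was Polycomb dense (left, bars, percent; family size in parentheses; dashed line at 4.34%, the share of all genes) and share H3K4me3 marked (right, percent) among plus-strand (filled) and minus-strand (open) members, with dashed and dotted lines at the 52.8% and 5.14% of all plus-strand and minus-strand genes. Homeobox, Hox, GATA and Zic and bHLH genes have the longest bars, and growth and metabolism families have none.

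The genes with dense H3K27me3 lay next to each other along the chromosome more often than genes at large. A neighbouring gene was dense for 21.6% of neighbours of bivalent-like genes and 17.7% of neighbours of Polycomb dense only genes, against 4.60% over all adjacent pairs. Within 10 kb the shares were 31.8%, 26.3% and 5.08%. Of 1118 dense genes with a position, 379 (33.9%) lay in 155 runs of 2 or more adjacent dense genes, and 11 runs held 4 or more.

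The longest run had 7 genes, from Evx2 to Hoxd8 at chr2:74652989-74707933 (mm10). Its densities were 37.2 CPM per kb in Evx2, 25.1 in Hoxd13, 32.0 in Hoxd12, 39.8 in Hoxd11, 29.04 in Hoxd10, 43.1 in Hoxd9 and 31.5 in Hoxd8. The H3K4me3 counts in the same order were 67, 85, 7, 25, 7, 24 and 81. H3K27me3 was thus high along the whole run, while H3K4me3 passed its minimum in 5 of the 7 genes. These posterior Hoxd genes pattern the limbs and the hind body. The window of Evx2, on the minus strand, is at its 3′ end.

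The next run, at chr6:52231197-52318389, ran from Hoxa10 through Hoxa11, Hoxa11os, Hoxa13 and the predicted gene 5730457N03Rik to Evx1. It begins just past Hoxa9, which MLL fusions are known to keep active in leukemia. Hoxa10 had 239 H3K27me3 counts, or 10.1 CPM per kb (8.88 to 11.5), and 87 H3K4me3 counts, Hoxa11 18.5 CPM per kb and 10 counts, and Hoxa13 32.9 CPM per kb and 4 counts. The antisense gene Hoxa11os, between the last pair, was at 23.3 CPM per kb with 122 counts, and overlaps Hoxa11. Hoxa9 had 1 H3K27me3 count over its 3317 bp and 220 H3K4me3 counts (192 to 251), and Hoxa7 had 0 and 90. The Hoxa7, Hoxa9, Hoxa10, Hoxa11 and Hoxa13 windows lie at the 3′ end of these minus-strand genes. From Hoxa9 to Hoxa13 the density thus rose, while the H3K4me3 windows followed no single direction along the cluster. The third run, at chr1:74754342-74898842, held Wnt6 (8.44 CPM per kb, 23 H3K4me3 counts), Wnt10a (22.5, 18), Cdk5r2 (41.2, 87), Fev (39.9, 7) and Cryba2 (15.5, 1).

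Hhex, at chr19:37434841-37440731 on the plus strand, was itself bivalent-like. Hhex is a homeobox factor of blood and endoderm, and the series also profiled its binding. It had 332 H3K27me3 counts, or 23.1 CPM per kb (20.6 to 25.7), and 60 H3K4me3 counts (45.8 to 77.2). Among 43 haematopoietic lineage transcription factors it had the highest density. Of the bivalent-like factors, Eomes, of cytotoxic lymphocytes, was next at 20.4 with 63 H3K4me3 counts, then Irf8, of monocytes and dendritic cells, at 9.80 with 44, and Gata2, of stem and mast cells, at 9.34 with 95.

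All classes occurred within this list, with 4 bivalent-like, 4 Polycomb dense only, 13 H3K4me3 only and 22 unmarked. Tal1, an erythroid and stem cell factor on the plus strand, was dense at 12.7 CPM per kb (11.5 to 14.1) with 4 H3K4me3 counts (1.09 to 10.2). Klf4 at 17.0, Gata3, the T-cell factor, at 9.64 and Tbx21, of T helper cells, at 8.85 were dense with 0, 0 and 1 counts, but all 3 lie on the minus strand. Of the factors in the H3K4me3 only class, Cebpe had 1 H3K27me3 and 188 H3K4me3 counts, Spi1, which encodes PU.1, 7 and 111, Ikzf1 23 and 78, and Cebpa 0 and 67. Cebpe and Spi1 had no known strand, so their windows may lie at either end of the gene. On the plus strand 13 of 16 factors of the list were marked, and on the minus strand 1 of 19.

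**Figure D4:**
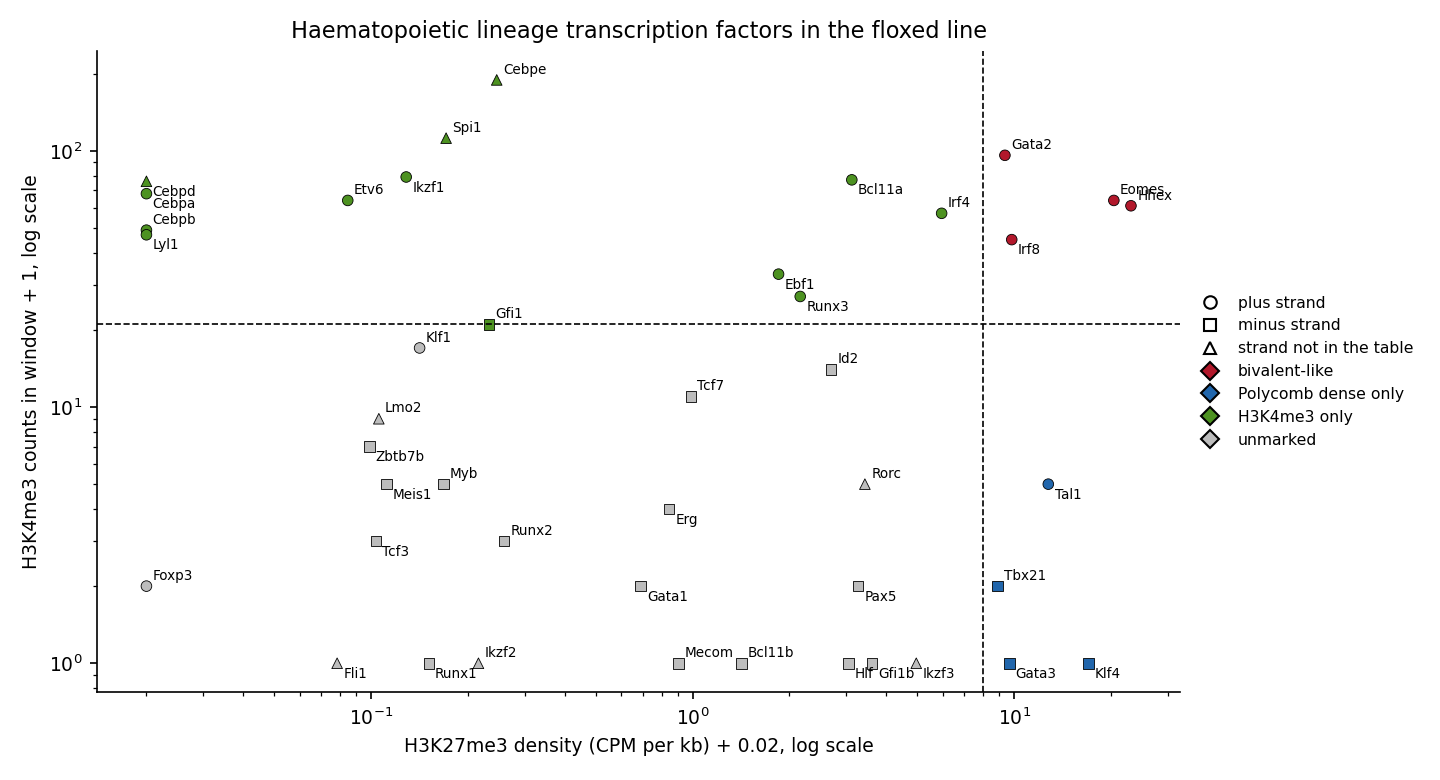
H3K27me3 density (x, CPM per kb plus 0.02, log scale) and H3K4me3 counts (y, plus 1, log scale) of 43 haematopoietic transcription factor genes; colour gives the class and shape the strand, and dashed lines mark the minimums of 8 CPM per kb and 20 counts. Hhex, Eomes, Irf8 and Gata2 lie in the upper right, and nearly every minus-strand gene lies below the horizontal line.

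Myeloid marker genes were checked against the label of the cells. All 7 plus-strand markers of the myeloid leukemia list were H3K4me3 marked, at 36 to 223 counts, with Kit, the stem cell factor receptor, at 223, Elane, neutrophil elastase, at 91, and Itgam at 36. None of the 13 myeloid markers was dense, and their median density was 0.131 CPM per kb. Flt3 stood well above that median, with 559 H3K27me3 counts at 3.28 CPM per kb (3.01 to 3.56). Of plus-strand markers of B cells, T and NK cells, erythroid cells and stroma, 1 of 7 was marked, Ebf1 with 32 counts. Of the dense genes among these other markers, Epor, the erythropoietin receptor, was the single case, at 22.1 CPM per kb. The H3K4me3 contrast was less clear in longer lists of the same lineages. On the plus strand 9 of 13 myeloid genes were marked there, against 2 of 3 for B cells and 0 of 6 for T and NK cells. It was 3 of 8 in the erythroid list, 2 of 9 in the stromal list and 3 of 3 in the mast cell list. The short marker lists mix strands: all 3 mast cell and basophil markers lie on the minus strand, so their starts were not measured. The summed H3K4me3 count over all markers was 995 for the 13 myeloid genes and 1 to 36 for the other lists of 3 to 5 genes, windows at 3′ ends included. Ptprc, Meis1, Myb and Flt3 had 0, 4, 4 and 1 H3K4me3 counts, but their windows lie at the 3′ end.

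The inhibitors of cyclin-dependent kinases were spread over all classes. Of 7 genes 3 were dense, a small set to read against the 4.34% of all genes. Cdkn2a, which encodes p16 and p19ARF and is named in the series title, lies at chr4:89274473-89294619 on the minus strand. It had 575 H3K27me3 counts, or 11.7 CPM per kb (10.7 to 12.7), and 46 H3K4me3 counts (33.7 to 61.4). That H3K4me3 window is at the 3′ end of Cdkn2a and says nothing of its promoters, so its bivalent-like call is not one of a promoter. Its neighbour Cdkn2b had 62 counts, or 5.35 CPM per kb (4.10 to 6.85), wholly below the minimum, and 0 H3K4me3 counts, also at the 3′ end. Cdkn2c was at 8.64 CPM per kb (6.99 to 10.6) with 36 counts, on the minus strand. Cdkn1c, with no known strand, was at 19.3 with 3. Cdkn2d, on the minus strand, had 1 H3K27me3 count and 45 H3K4me3 counts. Cdkn1a, which encodes p21, had 6 H3K27me3 counts and 58 H3K4me3 counts, and Cdkn1b 0 and 47.

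Genes of growth and basic metabolism were not dense in any case. None of 79 cytosolic ribosomal protein genes, 39 proteasome genes, 93 oxidative phosphorylation genes, 68 RNA splicing genes and 29 cyclin and cell cycle kinase genes was dense. The same was true of 11 genes of Polycomb repressive complex 2 and 20 of complex 1. All of these sets except oxidative phosphorylation are too small for a count of 0 to stand apart from the 4.34% of all genes. Suz12, a core subunit on the plus strand, had 43 H3K4me3 counts and 0.180 CPM per kb. Cbx2, a chromobox subunit of complex 1 with no known strand, had 218 counts and 6.30 CPM per kb. The genes at the top of the H3K4me3 only class were Rtn4r, the Nogo receptor gene, with 321 counts, Rcor1 and Yes1, a Src family kinase gene, with 317 each, and Zswim5 with 316. Rtn4r, Yes1 and Zswim5 had densities of 3.35, 3.89 and 4.65 CPM per kb, above the mean over all spans, and Rcor1 0.0834.

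Small RNA genes also reached the top of that class. Of 119 small nucleolar RNA (snoRNA) genes inside another gene, 72 were marked (60.5%), with a median of 150.5 counts among the marked. Snord68 had 305 counts, while its host Rpl13, whose start lies 708 bases upstream, had 4. Snora3 had 292 counts and its host Rpl27a, 937 bases upstream, 75, and Snora65 had 297 and its host Rpl12, 1589 bases upstream, 115. In these 3 plus-strand hosts more H3K4me3 thus lay inside the gene than around its annotated start. Rpl13 was called unmarked although the Snord68 window within it passed the minimum by far.

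Position also affected H3K27me3. Among genes of 2 kb or more, 611 of 772 whose whole span is shared with other genes had 0 counts (79.1%), against 1014 of 15632 with no overlap (6.49%). Of the shared genes 1.30% were dense, and of those without overlap 5.40%. Sox1, Sox2, Hoxa5, Hoxa6 and Hoxd4 had 0 H3K27me3 counts with their whole span shared, while Hoxa7 and Cebpa had 0 with no overlap. A count of 0 in a shared gene therefore cannot be read as absence of the mark, and Sox1 and Sox2 are unplaced for H3K27me3 in this sense. Overlap was taken from RefSeq spans, which differ from the deposited gene length in 13733 of 25274 genes. The way reads in shared spans were assigned was not given in the sources used here.

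Dense calls varied with gene length, the divisor of the density. The share dense was 0.400% below 1 kb, 6.24% at 1 to 2 kb, 11.7% at 2 to 5 kb, 8.47% at 5 to 10 kb, 4.35% at 10 to 20 kb, 2.20% at 20 to 50 kb, 0.760% at 50 to 100 kb and 0.347% at 100 kb or more. Of 1214 genes with 500 or more H3K27me3 counts 1010 were not dense, and they were long, with a median of 146278 bp in the 294 that were H3K4me3 only and 140762 bp in the 716 that were unmarked. Grik4, a kainate receptor gene, had 4617 counts at 4.45 CPM per kb (4.33 to 4.58), and the B-cell factor genes Pax5 and Ebf1 had 1420 counts at 3.25 and 1731 at 1.83. Pax5 was thus called unmarked and Ebf1 H3K4me3 only, with more H3K27me3 counts than Hhex.

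**Figure D5:**
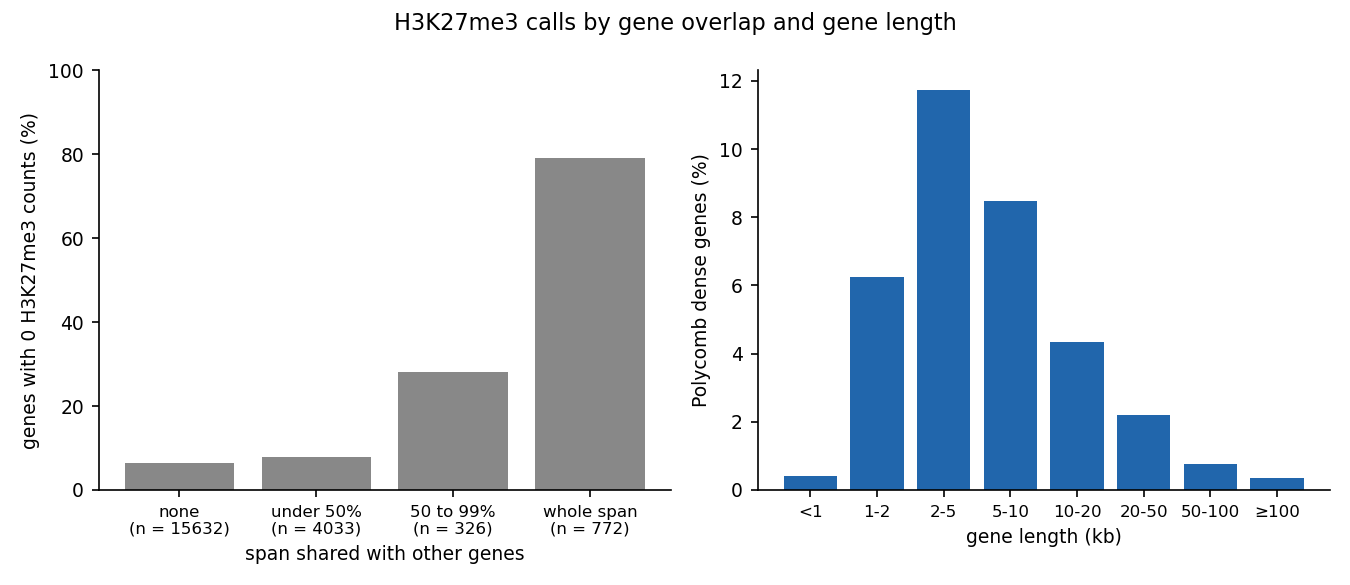
Left, share of genes of 2 kb or more with 0 H3K27me3 counts (y, percent) by how much of the span is shared with other genes (x, with the number of genes). Right, share of genes called Polycomb dense (y, percent) by gene length (x, kb). Genes nested in others reach 79.1%, and dense calls peak at 11.7% for 2 to 5 kb.

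The X chromosome had few dense genes. It held 9 of 1169 (0.770%, 0.353 to 1.46), none of them bivalent-like, against 1109 of 23974 on the autosomes (4.63%, 4.36 to 4.90). H3K4me3 was also less frequent there, with 28.6% of plus-strand X genes marked against 54.3% on the autosomes. The median density was 0.0799 CPM per kb on the X chromosome and 0.224 on the autosomes. The number of X chromosomes in the line was not given in the sources used here, and its part in these values was not tested.

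Genes near the thresholds show how fine the class borders are. B3gnt7 at 8.01 and B3gnt3 at 8.03 CPM per kb were just dense, and Nefh at 7.996 and Klk10 at 7.98 just not. By counts, Atoh7 with 50 and Anp32b-ps1 with 51 passed, while Kcnmb4os2 and Sstr4 with 48 did not, though their densities were 30.5 and 14.1 CPM per kb. In all 165 genes had the density but not the counts. Among dense genes, Fam69c and Foxc2 were bivalent-like with 20 H3K4me3 counts, and Ckb and Foxd4 Polycomb dense only with 19.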

How the data were processed

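The authors deposited whole-number counts per gene for each library, not normalised. Per the submitters' processing notes, featureCounts and MACS2 were used on mm10; their versions and the aligner were not given in the sources used here. No input library was used here. The 568 rows without a symbol (0.629% of H3K27me3 and 0.739% of H3K4me3 counts) and 1 gene with a length below 0 were left out. CPM used the total of named genes in each library. RefSeq tables of assembly GRCm38.p6 gave positions for 25274 genes, and strand from promoter and hairpin entries; the deposited gene length equalled the RefSeq span in 11541 of these. Densities used the deposited lengths. The members, thresholds and gene lists were chosen with earlier results of these data known. Named genes are the 10 with the highest values in a class, up to 4 members per class of each list, the genes at the thresholds, those of the 3 longest runs of dense genes, and a fixed set (Cdkn2a, Cdkn2b, Hhex, Hoxa9, Hoxa10, Meis1, Mpo, Elane). Grik4, Rnr1, LOC100041504, Rpl12, Rpl13, Rpl27a, Snora3 and Snora65 were named after their values were seen. No test was made. Scripts ran on Python 3.11.15, pandas 2.3.3, numpy 2.4.6, scipy 1.17.1 and matplotlib 3.10.9, and the class rule was tested on simulated data. Alternatives changed the minimums, the library total and the genes admitted.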

Additional observations from a re-analysis of the deposited data

How the results depend on the processing

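Of 56 class sizes recomputed in 14 settings, 46 stayed within 1.5 times the reported size. The H3K4me3 only and unmarked classes are so large that changed H3K27me3 minimums could hardly move them. With a density minimum of 4 CPM per kb the bivalent-like class held 638 genes and Polycomb dense only 1670. With a minimum of 12 they held 242 and 514. At an H3K4me3 minimum of 40 counts the bivalent-like class held 239. Its sizes of 242 and 239 were within 1.5 times of 357. The strand restrictions were chosen after seeing the data: plus-strand genes alone gave 207 bivalent-like, 199 Polycomb dense only and 4300 unmarked genes, and minus-strand genes alone gave 43, 360 and 8603, with 443 H3K4me3 only. These last settings admit fewer genes. The order of the H3K4me3 marked shares of dense and other genes changed between settings: at 20 counts 30.9% of dense and 26.5% of other genes were marked, at 10 counts 42.4% and 29.7%, at 40 counts 20.7% and 22.7%, on the plus strand alone 51.0% and 52.9%, and in genes of at least 2 kb 29.89% and 29.93%. No paired analysis was possible because the labels give no replicate numbers and each mark has 1 library. Leaving out a replicate could not be run for the same reason. Depth limits single calls: both intervals lay past their minimums in 247 of 357 bivalent-like genes.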
